A study of Mus musculus with 34 samples.

Results

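The proteasome subunit genes were described in mouse cumulus cells (CCs), the somatic cells that surround the oocyte. Members were chosen by name, as the table entries whose symbol begins with Psma, Psmb, Psmc, Psmd or Psme and a number, with pseudogenes and Psmc3ip left out. Of 25965 entries in the table, 43 were members. They made up 7 genes of the core alpha ring, 7 of the core beta ring, 3 of the immunoproteasome, 2 tissue-restricted core genes, 9 of the base, 8 of the lid, 3 base assembly chaperones and 4 activators.

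The libraries came from C57BL/6J females, and each held CCs of 1 cumulus-oocyte complex collected after superovulation. In the leptin experiment, mice of 8 weeks of age were injected intraperitoneally for 16 days with saline (16 C, 3 libraries) or with 100 μg leptin per day (16 L, 5 libraries). In the diet experiment, mice received chow diet (CD, 11% of energy from fat) or high-fat diet (HFD, 58%) from 8 weeks of age. There were 5 libraries of 4-week CD, 5 of 4-week HFD, 6 of 16-week CD, 7 of 16-week HFD and 3 of mice that gained little weight on 16 weeks of HFD (low gainers). Every group thus shared the strain, sex and hormone treatment, and a library from so few cells was amplified from oligo-dT primed cDNA without molecular identifiers.

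The proteasome is the protease that degrades most ubiquitin-tagged proteins of a cell. Its core is a barrel of stacked rings: outer alpha rings, which gate the entry, and inner beta rings, of which Psmb5, Psmb6 and Psmb7 carry the catalytic sites. A regulatory particle caps the barrel, its base unfolding the substrate with the Psmc ATPases and its lid removing ubiquitin. Under interferon, Psmb8, Psmb9 and Psmb10 take the places of Psmb5, Psmb6 and Psmb7 and form the immunoproteasome, which is known for making peptides for antigen presentation. Psme1 and Psme2, Psme3, and Psme4 encode alternative caps that open the core without the regulatory particle.

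Library totals ranged from 1104611 to 13207018 counts. The summed level of 10 cumulus and granulosa markers lay between 619 RPM (the count scaled by the library total) in 16 L replicate 18 and 2890 RPM in 16-week HFD replicate 12. Of the 6 oviduct epithelium markers, the sum reached 30330 RPM in 16 L replicate 18. It came to 9.77, 1449, 2252 and 391 RPM in 16 L replicates 19, 20, 21 and 23. It was 20.7 to 71.0 RPM in 16 C, where Foxj1 and Wfdc2 had no read, and at most 414 RPM in the other groups. The 16 L replicates 18 and 21 also held 9805 and 2549 RPM of red blood cell genes, against at most 134 RPM in every library outside 16 L. Of the 8 leukocyte markers in the table, the sum was 105 to 465 RPM in 16 C and 107 to 1843 RPM in 16 L. The 6 theca and stroma markers summed to at most 2.27 RPM in 16 C and to 1318 RPM in 16 L replicate 18. The 9 oocyte markers summed to 384 RPM in 4-week HFD replicate 5, against at most 10.4 RPM in 4-week CD, and the part of these cells in the results was not tested.

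Sequence upstream of the gene start was at hand for 36 of the 43 members, from RefSeq on GRCm38.p6. The windows of 4 called genes are shown: Psma2, Psma5 and Psmd11, which were lower in 16 L, and Psme3, which was higher in low gainers. Each is the 250 bases before the start, 5′ to 3′, and capitals mark motif matches on either strand: CCAAT (the CCAAT box, bound by NF-Y) in Psma2 and Psme3, and CCGGAAG (an ETS core) in Psmd11 and Psme3. The windows are chr13:14612992-14613241, chr3:108256676-108256925, chr11:80428365-80428614 and chr11:101315963-101316212, all on the plus strand.
Psma2: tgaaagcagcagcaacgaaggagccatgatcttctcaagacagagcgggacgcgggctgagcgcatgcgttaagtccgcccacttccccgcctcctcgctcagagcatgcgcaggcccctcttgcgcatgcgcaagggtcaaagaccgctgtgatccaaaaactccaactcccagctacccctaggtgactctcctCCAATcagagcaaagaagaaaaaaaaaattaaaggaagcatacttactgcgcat
Psma5: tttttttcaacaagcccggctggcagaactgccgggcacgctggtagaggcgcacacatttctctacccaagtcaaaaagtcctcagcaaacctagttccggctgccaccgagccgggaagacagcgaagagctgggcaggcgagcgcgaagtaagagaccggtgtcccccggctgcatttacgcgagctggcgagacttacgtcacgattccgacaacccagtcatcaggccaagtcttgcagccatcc
Psmd11: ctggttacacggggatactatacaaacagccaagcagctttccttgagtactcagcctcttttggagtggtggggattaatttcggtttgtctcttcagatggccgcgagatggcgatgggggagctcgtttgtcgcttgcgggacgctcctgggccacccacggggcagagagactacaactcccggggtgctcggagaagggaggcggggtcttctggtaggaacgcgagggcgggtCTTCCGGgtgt
Psme3: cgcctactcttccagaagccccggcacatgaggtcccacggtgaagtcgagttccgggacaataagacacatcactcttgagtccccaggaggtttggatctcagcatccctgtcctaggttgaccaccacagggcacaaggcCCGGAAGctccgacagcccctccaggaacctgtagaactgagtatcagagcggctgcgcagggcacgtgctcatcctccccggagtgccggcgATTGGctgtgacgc

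The ETS core was in a window of 11 of the 36 members (30.6%) and in 6.91% of all 32851 promoter windows of the same length. A member with more than 1 window (Psma6, Psmc2, Psme2) counted once if any window matched. The share of all counts each window, so the units of these shares differ. The CCAAT box was in 14 (38.9%), against 33.8% of all. The antioxidant response element core TGACNNNGC, the kind of site through which Nfe2l1 acts, was in 5 (13.9%) against 10.2%. The interferon response core was in 3 (8.33%) against 2.98%, and the gamma interferon activation site TTCNNNGAA in 1, Psmb8 (2.78%), against 7.02%. By the gene positions deposited with the counts, the windows of Psmb8, Psmb9, Psmd13 and Psme1 lie inside the gene. So does 1 window each of Psma6 and Psmc2, and some other windows overlap the gene in part. The last pair of motifs can overlap each other, and a match describes letters only.

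Core subunits were the most abundant members when reads were scaled per kb of transcript. Over the 34 libraries the mean level was highest for Psmb6 at 595 ± 325 RPM per kb (SD, n = 34), followed by Psma7 at 479 ± 269, and Psma1, the third, at 225 ± 75.6. Among the other lists, the highest were Psmd4, a ubiquitin receptor of the base, at 185, Psme2 at 180, Psmd7 of the lid at 144 and the chaperone Psmd10 at 61.3 RPM per kb. The lowest of each list were Psmb5 (87.4) in the beta ring, Psma4 (137) in the alpha ring, Psmd1 (57.7) in the base, Psmd3 (27.8) in the lid, Psmd9 (10.9) among chaperones and Psme3 (16.3) among activators. The mean ± SD ranges of neighbouring genes in this order overlapped, except between Psmd9 and Psmb9 and between Psma8 and Psmb11.

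The immunoproteasome genes were low but present. Psmb10 had a mean of 33.4 RPM per kb, Psmb8 of 23.2 and Psmb9 of 4.12, and each had reads in all 34 libraries. The spermatocyte subunit Psma8 was at 1.78 RPM per kb with reads in 32 libraries. The thymus subunit Psmb11 had 2 reads in all, 1 each in 4-week CD replicate 1 and 16-week CD replicate 5. Psme2 has a processed copy, Psme2b-ps, and Psma8 resembles Psma7, so that reads of these pairs may have been split in counting.

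The members took between 0.453% and 1.23% of all reads of a library. The share was 0.776% to 0.987% in 16 C, while in 16 L it was 0.939% in replicate 18 and 0.578% to 0.680% in the other 4 libraries. It was 0.453% to 0.686% in 4-week CD and 0.529% to 0.682% in 4-week HFD. In 16-week CD, replicates 1 and 2 were at 0.557% and 0.562% and the other 4 at 0.938% to 1.23%, and 16-week HFD ranged from 0.778% to 1.14% and the low gainers from 0.822% to 0.885%. The 16-week CD replicates 1 and 2 thus stood with the 4-week libraries and not with the rest of their own group. The 16 L libraries other than replicate 18 also lay within the range of 4-week CD, while 16 C lay above that range. The labels give no processing batch for any of these libraries, so a batch and the groups cannot be told apart. The members' median in each comparison with 16-week CD is given with and without its replicates 1 and 2. Other results for that group include both unless stated. These 2 were picked by the share above, so a fall of the members' median without them follows from the choice.

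**Figure D1:**
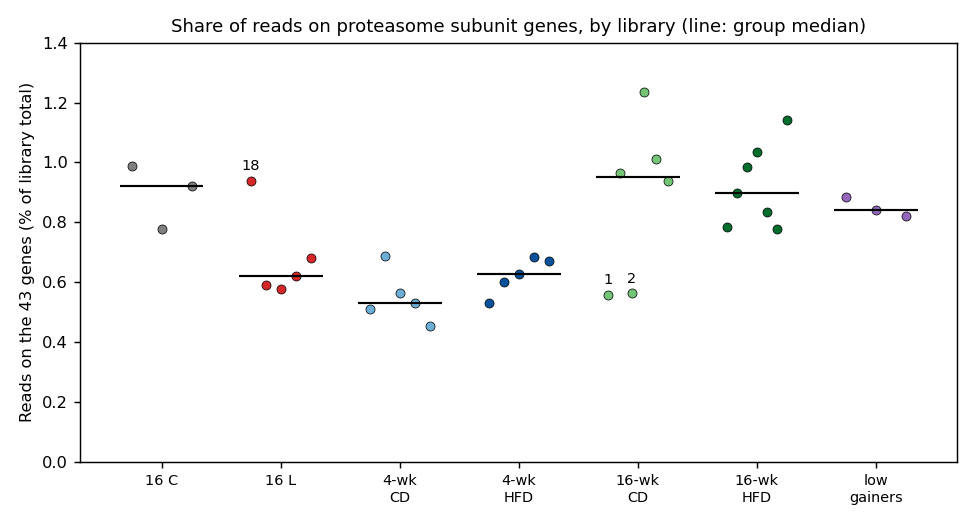
Percent of each library's reads that fell on the 43 proteasome subunit genes (y axis) by group (x axis), 1 point per library with the group median as a line. Numbers mark 16 L replicate 18 at 0.939% and 16-week CD replicates 1 and 2 at 0.557% and 0.562%, each apart from the rest of its group.

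The first comparison asked how leptin injection altered CC transcription. In 16 L, core subunits stood lower than in 16 C relative to the other genes, and 2 genes of the core alpha ring, Psma2 and Psma5, and the lid subunit Psmd11 fell, while the lid subunit Psmd3 rose. In all, 4 of the 41 members that passed the low-count filter were called (edgeR quasi-likelihood test, adjusted p under 0.05), against a background of 8.56% of the 11723 genes tested. This count was near that background. By direction, 1 member was higher (background 4.06%) and 3 were lower (background 4.5%). On TMM-scaled levels, 12 members were lower in every 16 L library than in any 16 C library (background 11.2%) and 2, Psmd3 and Psme3, were higher in every one (background 12%). For the 4 called genes, RPM in the 16 L libraries other than replicate 18 lay within the range of 4-week CD. The 16 C libraries lay outside that range for each of the 4. A batch and the groups cannot be told apart, as given above. In CC bulk libraries, fewer cells of a type and less RNA per cell cannot be told apart.

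Psma2 (chr13:14613242-14625671, plus strand) encodes a subunit of the alpha ring. Its level was 753, 495 and 729 RPM in 16 C replicates 1, 2 and 3, and 350, 294, 144, 164 and 194 RPM in 16 L replicates 18, 19, 20, 21 and 23. All 5 libraries of 16 L were below all 3 of 16 C. The log2 fold change was -2.20 (SE 0.493, adjusted p = 0.0318, edgeR).

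Psma5 (chr3:108256926-108279974, plus strand), of the same ring, had 349, 227 and 358 RPM in 16 C and 204, 171, 155, 121 and 215 RPM in 16 L. The groups did not overlap, although the highest 16 L library was close to the lowest of 16 C. It fell by 1.58 on the log2 scale (SE 0.376, adjusted p = 0.0379, edgeR).

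Psmd11 (chr11:80428615-80473248, plus strand), a scaffold subunit of the lid, had 213, 141 and 192 RPM in 16 C. In 16 L it had 139 RPM in replicate 18 and 89.1, 72.4, 77 and 73.2 RPM in the others. Replicate 18 thus lay at the lower edge of 16 C and the other 4 well below it. The log2 fold change was -1.69 (SE 0.427, adjusted p = 0.0429, edgeR).

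Psmd3 (chr11:98682554-98695979, plus strand), another scaffold subunit of the lid, went the other way. It had 16.2, 12.6 and 13.5 RPM in 16 C and 209, 74.2, 82.6, 90.5 and 92.8 RPM in 16 L, with every 16 L library above 70 RPM. The log2 fold change was 2.31 (SE 0.581, adjusted p = 0.0422, edgeR). Its transcript had the highest GC content of all members, 58.3%.

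**Figure D2:**
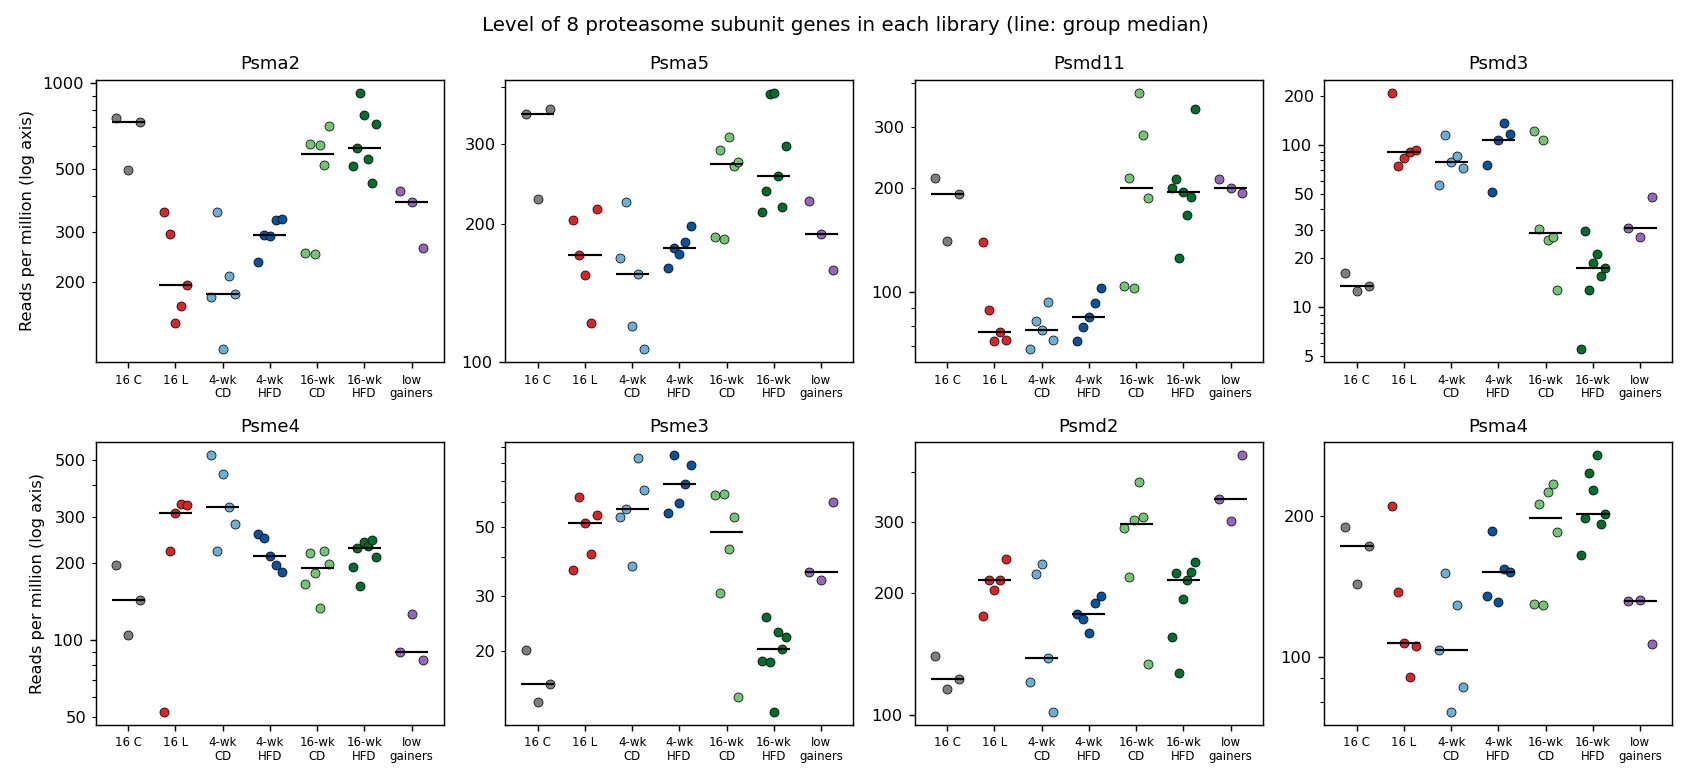
Level in RPM (log y axis) of 8 proteasome subunit genes called in 1 or both comparisons with calls, 1 point per library by group with the group median as a line. Psma2 in 16 L reached at most 350 RPM and stayed below the 495 RPM of the lowest 16 C library, and Psmd3 in 16 C was at 12.6 to 16.2 RPM.

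The fold changes of the lists shared a direction more widely than the calls did. The median log2 fold change of the 41 members was -0.83, where that of all genes tested was 0.27, and 18.1% of all genes lay below the members' median. Of the members, 36 were below zero, and 24 were when libraries were scaled by their totals instead of by TMM, a change that moved the all-gene median to 1.08. With either scaling, 39 of 41 members lay below the median of all genes. With total scaling the calls were 2 higher (Psmd3 and Psme3) and 1 lower (Psma2). The share over all genes in that fit is not given here.

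By list, the alpha ring had the lowest median, -1.58, with all 7 genes below zero and 2 called, and Psma3 was at -1.85 (SE 0.572, adjusted p = 0.0680, edgeR). The beta ring had a median of -0.85 with 7 of 7 below zero and none called. Here Psmb1 was at -1.77 (SE 0.514, adjusted p = 0.0577, edgeR) and the catalytic Psmb6 at -1.33 (adjusted p = 0.16, edgeR). The base, with 9 of 9 below zero, had a median of -0.74, the chaperones, 3 of 3, of -1.05, and the lid, 6 of 8, of -0.80. The activators were split, with a median of 0.03, 2 of 4 above zero and 3 of 4 below the median of all genes. They ran from -1.23 to 0.79, the value of Psme3, the nuclear cap (adjusted p = 0.117, edgeR). Without 16 L replicate 18, Psme2 was at -1.96. Psmd8 of the lid and Psme1 of the activators, both at 0.15, were the other largest rises by rank, and neither passed the test.

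How many members were called depended on 16 L replicate 18. Without it, 30 of 41 members passed (background 41.8%), 29 of them lower (background 21.7%) and 1 higher (background 20.2%). All 7 alpha ring genes, 5 of 7 beta ring genes, all 3 immunoproteasome genes, 5 of 9 base genes, 5 of 8 lid genes, all 3 chaperones and 1 of 4 activators were then called lower, and Psmd3 was still called higher. The members' median was -1.23 and that of all genes 0.10. Without any 1 of the 3 libraries of 16 C, or without 16 L replicate 20, 21 or 23, no member was called. In these fits 0.235% to 1.28% of all genes tested were called. This replicate held the highest oviduct and red blood cell sums and the lowest cumulus sum given above, and the part of these cells in the members' levels was not tested.

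The calls also moved with the method. At an unadjusted p under 0.05, edgeR listed 16 members (background 32.4%). At an adjusted p under 0.05, DESeq2 called 8 (background 18.9%) and limma-voom with sample quality weights 35 (background 64.4%). The members' fold changes correlated with the GC content of their transcripts (r = 0.47 over 41 genes), as did those of all genes tested (r = 0.31 over 11593 genes). The part of base composition was not tested.

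Psma8 did not pass the filter in this comparison. It had 11 reads in 16 C and 26 in 16 L, a difference of 0.54 in mean log2(RPM + 1) with an exact permutation p of 0.393 (two-sided, smallest possible 0.0179). Psmb11 had no read in either group, which allows up to 3 counts per library for counting error.

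**Figure D3:**
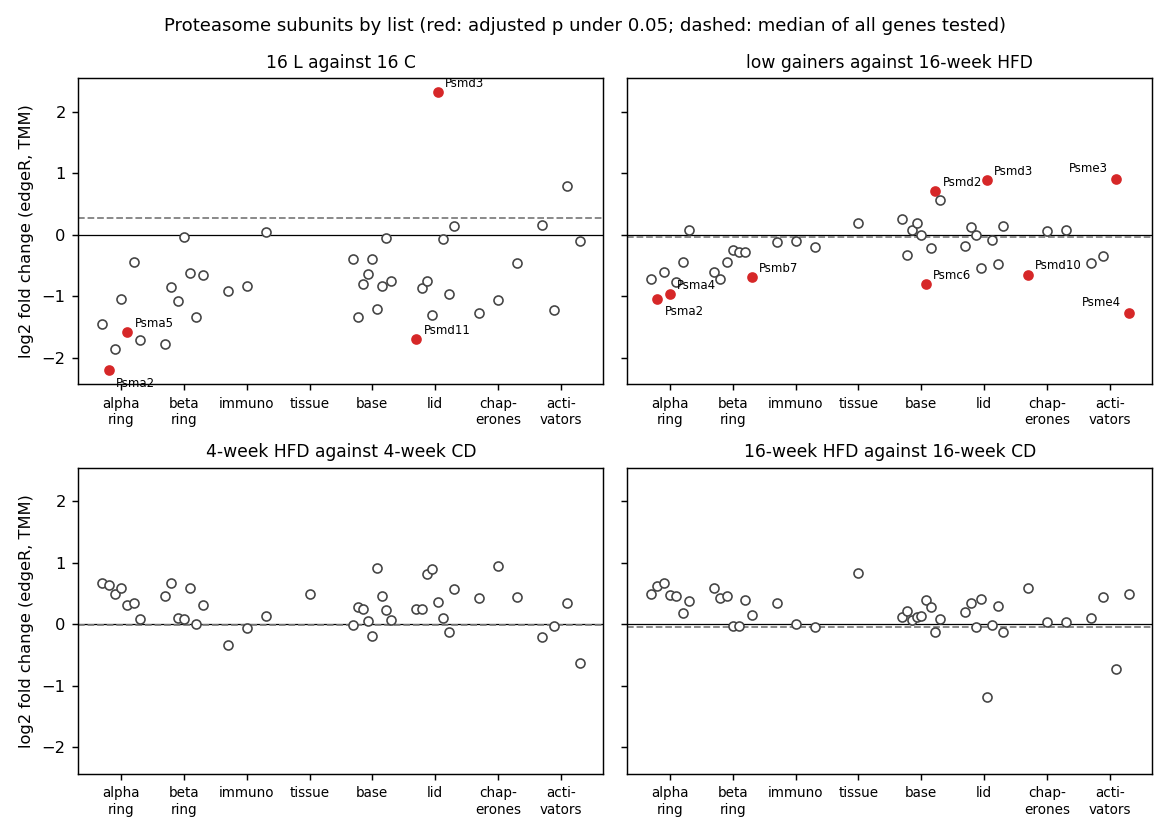
log2 fold change (edgeR, TMM scaling) of each member by list (x axis) in 4 comparisons, with members past an adjusted p of 0.05 in red and the median of all genes tested as a dashed line. In 16 L most members lie under the all-gene median of 0.27, and in the low gainers 6 members were called lower and 3 higher.

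The second comparison with calls set the low gainers against the other mice on 16 weeks of HFD. In the low gainers, the nuclear cap Psme4, the alpha ring genes Psma2 and Psma4, the ATPase Psmc6, the catalytic beta subunit Psmb7 and the chaperone Psmd10 fell, and Psme3, Psmd3 and the large base subunit Psmd2 rose. These were 9 of 42 members tested, against 20.7% of the 11258 genes tested, a count near that share. Of the 9 called, 3 were higher (background 10.8%) and 6 lower (background 9.93%). On TMM-scaled levels, 4 members lay above and 10 below every library of the other group (backgrounds 10.7% and 9.86%).

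Psme4 (chr11:30771726-30880361, plus strand) encodes a single-chain cap known for histone degradation. In 16-week HFD its 7 libraries had 162 to 246 RPM with a mean of 216 ± 30.0 (SD, n = 7), and the low gainers had 89.7, 126 and 83.5 RPM in replicates 21, 22 and 23. The groups did not overlap. The log2 fold change was -1.27 (SE 0.225, adjusted p = 0.00195, edgeR), and the call held with each of the 10 libraries left out in turn.

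Psme3 (chr11:101316213-101323537, plus strand) was at 12.8 to 25.8 RPM in 16-week HFD and at 35.9, 33.7 and 59.7 RPM in the low gainers. Its rise was 0.90 on the log2 scale (SE 0.220, adjusted p = 0.0100, edgeR). Without replicate 23 its fold change was 0.67 and the call was lost (adjusted p = 0.110, edgeR). Psmd2 (chr16:20651652-20663414, plus strand) was at 127 to 239 RPM against 342, 303 and 441 RPM, a log2 fold change of 0.71 (SE 0.194, adjusted p = 0.0176, edgeR). Both sets of levels were apart in the groups.

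Psma4 (chr9:54950790-54958030, plus strand) was at 165 to 269 RPM in 16-week HFD and at 132, 132 and 107 RPM in the low gainers, a log2 fold change of -0.97 (adjusted p = 0.00722, edgeR). Psma2 was at 444 to 925 RPM against 418, 382 and 262 RPM and fell by 1.04 (adjusted p = 0.0210, edgeR). Psmc6 (chr14:45329824-45349071, plus strand) was at 242 to 398 against 211, 214 and 194 RPM and fell by 0.80 (adjusted p = 0.0221, edgeR). For these genes no low gainer reached the lowest of the 7 other libraries.

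The remaining calls were closer to the threshold. Psmd10 (chrX:140948429-140956728, minus strand) fell by 0.65 (adjusted p = 0.0339, edgeR), and Psmb7 (chr2:38588036-38644087, minus strand) fell by 0.69 (adjusted p = 0.0492, edgeR). On RPM, both overlapped between the groups, at 113 to 166 against 85.6 to 114 and at 78.3 to 146 against 75.2 to 85.0. Psmd3 rose by 0.88 (adjusted p = 0.0431, edgeR), from 5.54 to 29.6 RPM in 16-week HFD to 30.7, 27.2 and 47.6 RPM in the low gainers, with overlap.

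As lists, the alpha ring had a median log2 fold change of -0.72 with 6 of 7 genes below zero, and the beta ring of -0.45 with 7 of 7. The base was at 0.07, the lid at -0.04, the chaperones at 0.06 and the activators at -0.41. Over all 42 members the median was -0.23, beside -0.03 for all genes tested. Of the members, 29 were below zero, and 24 with total scaling. With total scaling 4 were called higher and 3 lower, and the share over all genes in that fit is not given here.

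These calls depended on each low gainer, a group of 3. Without replicate 23, 1 member, Psme4, was called (background 5.19%). Without replicate 21, 3 were (background 9.94%), and without replicate 22, 5 (background 12.6%). Calls also moved with the 16-week HFD libraries, with 6 to 10 members called without any 1 of these (background 16.0% to 24.5%). Over the 10 fits with 1 library left out, Psmb7 kept its call in 3, Psmd3 in 4 and Psmd10 in 6. At an unadjusted p under 0.05 edgeR listed 17 members (background 36.3%). At an adjusted p under 0.05, DESeq2 called 14 (background 23.7%) and limma-voom 15 (background 29.2%). Fold changes correlated with GC content at r = 0.51 over the 42 members and r = 0.51 over all genes tested, and the part of base composition was not tested. In the same comparison 8 cumulus and granulosa markers were tested. Of these, 2 were called, Inhba and Ptgs2, which fell by 1.07 and 0.89 (adjusted p = 0.0110 and 0.0388, edgeR), and fold changes of the 8 ranged from -1.22 to 1.23, with 2 above zero. The summed level of all 10 such markers was 1514 to 1640 RPM in the low gainers and 1262 to 2890 RPM in 16-week HFD, and their part in the members' changes was not tested.

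Against 16-week CD, the low gainers had no member called by edgeR (0 of 42, background 0.00861%). There were 0 at an unadjusted p under 0.05 (background 11.2%). At an adjusted p under 0.05 there were 0 by DESeq2 (background 1.83%) and 0 by limma-voom (background 1.69%). The largest rises were Psma8 at 1.05, Psmd4 at 0.67 and Psmd2 at 0.60, and the largest falls by rank were Psme4 at -0.75, Psmb7 at -0.51 and Psma4 at -0.47, with adjusted p from 0.463 to 0.676 (edgeR). The members' median was -0.01, and -0.34 without 16-week CD replicates 1 and 2. The low gainers are the same 3 libraries in both comparisons.

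After 4 weeks of diet, the members were not called, though more of them stood above zero than below. By edgeR 0 of 42 passed (background 4.26%), with 9 at an unadjusted p under 0.05 (background 24.3%). DESeq2 called 3, Psmc6, Psmd13 and Psmd14 (background 9.67%), and limma-voom 23 (background 34.5%). The median log2 fold change was 0.29, beside -0.01 for all genes, and 33 of 42 were above zero, or 28 with total scaling.

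The largest were the chaperone Psmd5 at 0.95 (SE 0.322), Psmc6 at 0.92 (SE 0.310) and Psmd14, the lid's deubiquitinase, at 0.90 (SE 0.284), with adjusted p of 0.0951, 0.0950 and 0.0780 (edgeR). Psmd14 had 149, 148, 57.2, 99.4 and 83.6 RPM in 4-week CD replicates 11, 1, 2, 7 and 8. It had 175, 240, 183, 172 and 161 RPM in 4-week HFD replicates 13, 14, 3, 4 and 5, so that every HFD library was above every CD library. The lowest fold changes were those of Psme4 at -0.62, Psmb10 at -0.33 and Psme1 at -0.21, none past the test. Without 4-week CD replicate 11, which had the highest share of member reads in its group, 6 members were called, all higher (background 14.4%, either direction).

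After 16 weeks of diet, edgeR called 0 of 42 members (background 0.0276%), with 3 at an unadjusted p under 0.05 (background 25.3%). DESeq2 called 0 (background 9.05%) and limma-voom 0 (background 0.046%). Psma8 at 0.84, Psma3 at 0.67 and Psma2 at 0.62 had the highest log2 fold changes. Psmd3 at -1.18 (SE 0.391, adjusted p = 0.0898, edgeR) and Psme3 at -0.73 (SE 0.237, adjusted p = 0.0836, edgeR) had the lowest, followed by Psmd8 and Psmd2, both at -0.12.

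These values changed when the 2 libraries of 16-week CD that stood apart were left out. Psmd3 was at 121 and 106 RPM in CD replicates 1 and 2, at 12.8 to 30.1 RPM in the other 4 and at 5.54 to 29.6 RPM in HFD. Psmb6 was at 187 and 166 RPM in these 2 and at 645 to 1010 RPM in the other 4. Without both, Psmd3 was at -0.29 and no member was called (background 0.00909%). The members' median moved from 0.21, with 32 of 42 above zero, to -0.06, with 18 above zero. The 2 libraries were chosen for their low share of member reads, so a lower median without them follows from that choice. Total scaling alone gave a median of -0.05, where that of all genes was -0.40. With either scaling, 4 of 42 members lay below the median of all genes. Total scaling also called Psmd3 and Psme3 lower, and the share over all genes in that fit is not given here.

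**Figure D4:**
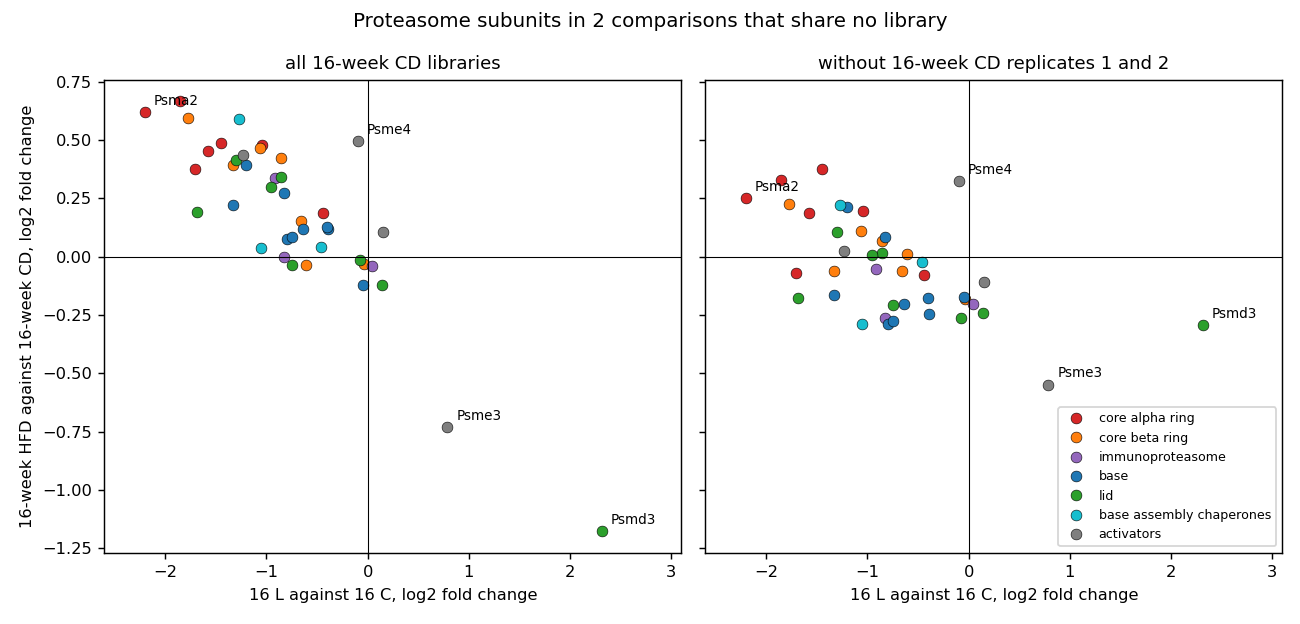
log2 fold change of each member in 16 L against 16 C (x axis) and in 16-week HFD against 16-week CD (y axis), colored by list, with all libraries (left) and without 16-week CD replicates 1 and 2 (right). Members low on the x axis lie high on the y axis, with Psmd3 at 2.31 and -1.18 on the left and at -0.29 on the y axis on the right.

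The leptin and 16-week diet comparisons share no library, and their members' fold changes ran opposite to each other. Pearson's r was -0.87 over 41 members and -0.58 over the 10628 genes tested in both. Without 16-week CD replicates 1 and 2 it was -0.58 for the members and -0.28 for all genes, and without 16 L replicate 18 it was -0.79 and -0.66. Fold changes of both comparisons also followed GC content with opposite sign, at r = -0.55 over members in the diet comparison. The other pairs compared, also without a shared library, had weaker correlations over members. For 16 L against 16 C with low gainers against 16-week HFD, r was 0.58 over members and 0.30 over all genes. The 4-week diet comparison was at -0.22 over members with 16 L, 0.04 with 16 weeks of diet and -0.08 with the low gainers. Genes are not independent replicates, so these values are a description.

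Whether the diet difference itself differed between 4 and 16 weeks was tested as an interaction. By edgeR 0 of 42 members passed (background 3.66%), with 4 at an unadjusted p under 0.05 (background 23.4%). DESeq2 called 3, Psme4, Psmd3 and Psme3 (background 9.12%), and limma-voom 6 (background 19.2%). Psme4 had the highest interaction, 1.16 (SE 0.376, adjusted p = 0.0682, edgeR), followed by Psmb10 at 0.67 and Psma8 at 0.48. Psmd3 had the lowest, -1.43 (adjusted p = 0.0781, edgeR), before Psme3 (SE 0.330, adjusted p = 0.0732, edgeR) and Psmd5 at -0.87. The members' median was -0.04, and -0.39 without 16-week CD replicates 1 and 2.

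The immunoproteasome genes passed the edgeR test in none of the 6 comparisons with all libraries. Psmb8 (chr17:34197721-34201454, plus strand) was at 51.6 to 59.2 RPM in 16 C and 41.4 to 77.9 RPM in 16 L, a log2 fold change of -0.82 (adjusted p = 0.101, edgeR). Psmb10 (chr8:105935728-105938392, minus strand) was at 43.8 to 65.9 RPM in 16 C and 22.1 to 68.8 RPM in 16 L, at -0.91 (adjusted p = 0.161, edgeR). Psmb9 (chr17:34181988-34187764, minus strand) was at 5.45 to 8.22 RPM in 16 C, at 28.5 RPM in 16 L replicate 18 and at 2.72 to 8.03 RPM in the other 4, with a log2 fold change of 0.04 (adjusted p = 0.979, edgeR). In the other comparisons with all libraries their fold changes lay between -0.33 and 0.34, and the interaction terms between -0.15 and 0.67. Of the constitutive subunits they replace, Psmb5 was at -0.61, Psmb6 at -1.33 and Psmb7 at -0.66 in 16 L. In the other 4 group comparisons Psmb5 lay between -0.30 and 0.59, Psmb6 between -0.28 and 0.39 and Psmb7 between -0.69 and 0.30.

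A ratio of each inducible subunit to the constitutive one it replaces does not depend on library scaling. The log2 count ratio Psmb8/Psmb5 averaged -0.09 ± 0.34 (SD, n = 3) in 16 C, -0.23 ± 0.82 (n = 5) in 16 L, -1.37 ± 1.03 (n = 5) in 4-week CD and -2.02 ± 0.16 (n = 5) in 4-week HFD. It was -1.22 ± 0.65 (n = 6) in 16-week CD, -1.06 ± 0.37 (n = 7) in 16-week HFD and -0.93 ± 0.26 (n = 3) in low gainers. Within 16-week CD, replicates 1 and 2 were at -2.03 and -1.96 and the others at -1.12 to -0.49. In each of the compared pairs the ranges overlapped.

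For Psmb9/Psmb6 the group means ran from -7.34 ± 0.65 in 16-week HFD to -5.46 ± 0.20 in 4-week HFD, so Psmb9 counts were far below those of Psmb6 in every group. For Psmb10/Psmb7 they ran from -2.03 ± 0.30 in 4-week HFD to -0.68 ± 0.31 in low gainers. In 4-week HFD the 5 ratios of Psmb10 to Psmb7 were -2.45 to -1.76, just overlapping the -1.76 to -0.58 of 4-week CD. The corresponding ranges in 16 C and 16 L were -0.94 to -0.78 and -2.11 to -0.46. In 16-week CD replicates 1 and 2, Psmb9/Psmb6 was at -4.80 and -5.35 and Psmb10/Psmb7 at -2.23 and -2.38. The other libraries of that group were at -7.93 to -6.36 and at -1.71 to -0.66.

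**Figure D5:**
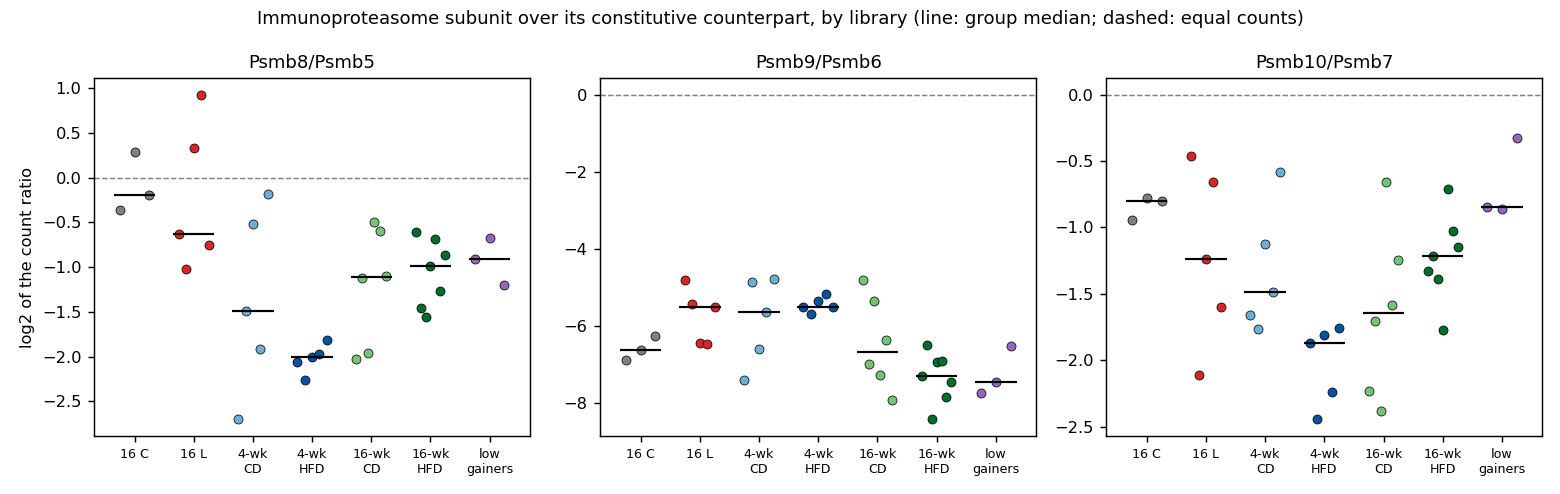
log2 of the count ratio of each immunoproteasome subunit to the constitutive subunit it replaces (y axis), 1 point per library by group with the group median as a line. The 16 C libraries lie at -0.36 to 0.29 for Psmb8/Psmb5, and Psmb9 is far below Psmb6 in every library.

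From library to library, most members moved together. After group means were removed, the median correlation over the 861 pairs of the 42 members expressed was 0.51, against 0.01 over pairs of all 13236 genes. Psmb3, Psmb2, Psmd10 and Psmb1 followed the mean of the other members most closely (r = 0.94, 0.92, 0.92 and 0.91 over 34 libraries). Psmd3, Psme3, Psme4 and Psma8 did not follow it, at r = -0.12, -0.18, -0.20 and -0.23. The libraries apart from their own group in the share of member reads, 16-week CD replicates 1 and 2 and 16 L replicate 18, were included. These libraries also differed in depth and in the cells they held, so the values are a description.

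Of 43 listed genes that work with the proteasome without being members, 2 were called in 16 L, a count below the background of 8.56%. Nfe2l1, the transcription factor that induces subunit genes when the proteasome is inhibited, rose by 2.10 (SE 0.540, adjusted p = 0.0442, edgeR). Uba1, the main ubiquitin-activating enzyme, rose by 1.69 (SE 0.404, adjusted p = 0.0379, edgeR). None of 6 core assembly genes, 14 associated factors or 7 immunoproteasome partners passed there. Without any 1 library of 16 C, at most 0.856% of all genes tested were called. Whether Nfe2l1 and Uba1 kept their calls in those fits is not reported here.

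In low gainers against 16-week HFD, 11 of the 41 of these genes that were tested were called, 6 higher and 5 lower, where the background over all genes was 20.7%. Ubqln1, a shuttle that brings tagged proteins to the proteasome, rose by 1.38, and Uba1, Nploc4 and Nfyc by 0.76, 0.80 and 0.70. The peptide transporter genes Tap1 and Tap2 rose by 1.35 and 1.14. The small lid-associated subunit Shfm1 (Sem1) fell by 0.95, the core assembly chaperone Psmg2 by 0.64, AI314180 (Ecpas) by 0.65, the ubiquitin fusion gene Rps27a by 0.995 and the second activating enzyme Uba6 by 1.06. Adjusted p-values of edgeR for these 11 ran from 0.00217 to 0.0382. In the 4-week and 16-week diet comparisons and in low gainers against 16-week CD, none of the listed genes was called, and their interaction values are not reported here.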

How the data were processed

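The authors amplified CC cDNA by Smart-seq2 with oligo-dT capture, tagged it with Nextera XT, and deposited 1 table of read counts per gene and library, whole numbers without normalization. The submitters' processing notes name Trim Galore 0.4.2, HISAT2 2.0.5 and the build GRCm38. The counting program and its strand setting are not given in the sources used here, so reads of overlapping genes cannot be told apart. Groups and replicate numbers came from the sample labels.

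Entries were kept apart where they share a symbol. Each comparison used the libraries of its own groups in edgeR 4.0.16 under R 4.3.3 (TMM normalization, filterByExpr, robust quasi-likelihood F-test, two-sided, Benjamini-Hochberg adjustment over all genes tested, threshold 0.05). RPM is the count over the library total. Levels per kb used the longest protein-coding transcript. Count ratios had 0.5 added to each count. DESeq2 1.42.0, limma-voom (limma 3.58.1), other scalings, filters and libraries left out were alternatives. Leaving out both 16-week CD replicates 1 and 2 was added after the data were seen. These 2 libraries were picked by their low share of member reads. Members and lists were chosen with earlier results of these data known. Members are named if called, if among the 3 largest rises or falls of a comparison, if of the immunoproteasome or its counterparts, or if highest or lowest of a list. P-values measure the spread between libraries of separate mice. Of 72 replicate pairs checked, none held identical counts. The scripts were tested on simulated data. A count of 0 allows up to 3 reads, for counting error only.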

Additional observations from a re-analysis of the deposited data

Results flagged for a closer look

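Among 16 members examined in the groups of 4 to 10 libraries, 7 of 80 gene and group combinations had 1 library far from the others by Dixon's criterion, and chance alone flags about 1 in 20. In 16 L, replicate 18 was highest for Psmb9 (28.5 RPM, the others 2.72 to 8.03), Psmd10 (130.2 RPM, the others 30.8 to 51.1), Psmd11 (139 RPM, the others 72.4 to 89.1) and Psmd3 (209 RPM, the others 74.2 to 92.8). Its summed oviduct epithelium markers were 30330 RPM, and the part of these cells was not tested. Also in 16 L, replicate 19 was highest for Psmc6 at 389.8 RPM, the others at 97.5 to 146.

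In 16-week HFD, replicate 6 was highest for Psmb6 at 949 RPM, the others at 565 to 689, and for Psmd11 at 337.5 RPM, the others at 126 to 213.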

How the results depend on the processing

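With 3 to 7 libraries per group, the number of members called depended on the tool. In 16 L against 16 C (4 called), DESeq2 called 8, limma-voom with sample quality weights 35, a fit without a filter 2 and a fit of all 34 libraries 19. In 4-week HFD against CD (0 called), DESeq2 called 3 and limma-voom 23. In 16-week HFD against CD (0 called), total scaling and the fit of all 34 libraries called 2 each. In low gainers against 16-week HFD (9 called), DESeq2 called 14, limma-voom 15 and the fit of all libraries 2. In the interaction (0 called), DESeq2 called 3, limma-voom 6, total scaling 1 and the filter of at least 10 counts in every library 1. The causes were not tested. Shares over all genes are given above for DESeq2 and limma-voom. They are not given for the other fits named here, so those counts are no result about the members. RLE size factors kept every count of calls within 1.5 times, and no called member changed direction under an alternative.

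With 1 library left out, the number called ranged from 0 to 30 in 16 L, 0 to 6 after 4 weeks, 0 to 2 after 16 weeks, 1 to 10 in low gainers against HFD, 0 to 0 against CD and 0 to 3 for the interaction. Over all genes tested, the share called in these fits ranged from 0.235% to 41.8%, 0.0674% to 14.4%, 0.00914% to 20.5%, 5.19% to 24.5%, 0% to 0.00884% and 0.556% to 13.8%, in the same order. The 2 calls after 16 weeks appeared without 16-week CD replicate 9, as did the 3 of the interaction, and without 4-week CD replicate 11 the interaction had 2. No paired analysis was possible because the compared groups share fewer than 2 replicate numbers.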
